A study of Mus musculus with 8 samples.

Results

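The insulin and IGF pathway, the atrophy program and glucose handling were represented by 42 genes of 21938 protein-coding genes, and H3K27ac at these genes was compared between Nrip1KO and Ctrl primary mouse myotubes. The 42 genes were a given list, written with earlier results of these data known. Regions were assigned to them from the differential regions that the authors had deposited in 2 lists, increased or decreased in Nrip1KO. A region belonged to a member when the annotated transcript start of a protein-coding gene nearest to its centre was that of the member, or when its centre lay within 100 kb of a start of the member. In all, 115 of 11180 differential regions met either condition, 32 of them increased and 83 decreased.

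CUT&RUN, in which an antibody guides a nuclease to the chromatin carrying a mark, had been performed on 8 libraries in 4 groups of 2, with H3K27Ac antibody or IgG for each genotype. Satellite cells of gastrocnemius were grown in medium with EGF, insulin and dexamethasone and then differentiated for 4 days in low-glucose medium with horse serum, in both genotypes. The study describes the KO cells as derived from striated muscle–specific mice, in which floxed Nrip1 was removed by Cre under the muscle creatine kinase promoter, and the labels give the genotype alone as Nrip1KO. Nuclei were pooled and divided between antibodies, so the number of animals or cultures behind each library is not known, and the share of nuclei that had lost Nrip1 is not given by the region lists. The lists hold a position and a direction for each region and no value per library. Depth, the size of each change, the IgG background and the spread between replicates are therefore unknown, and no test between genotypes could be run.

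Insulin and the IGFs bind receptor tyrosine kinases that phosphorylate the adaptors Irs1 and Irs2, which recruit phosphoinositide 3-kinase and activate Akt. In muscle, Akt drives protein synthesis through mTOR complexes, moves the glucose transporter GLUT4 to the surface by acting on Tbc1d1 and Tbc1d4, and holds FoxO factors out of the nucleus. FoxO factors that enter the nucleus switch on Fbxo32 and Trim63, the ubiquitin ligases of muscle atrophy. Acetylation of lysine 27 on histone H3 marks active promoters and enhancers.

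The sequences below belong to the members with the most nearest regions in each direction (Igf1r and Igfbp3), to a member with regions of both directions (Pik3r1), and to 5 members of different roles (Igf2, Foxo3, Irs1, Trim63 and Hk1). They are shown because these regions recur in the results, and they give the reader the DNA under the called differences. All are on the plus strand of mm10 and read 5′ to 3′. Runs of 300 bases are the centre of the region closest to a start of the gene, and runs of 200 bases, chosen after the values were seen, are the window of the region without annotated exons that held the most motif matches. Capitals mark matches on either strand to any of 7 motifs: the FOXO core GTAAACA, AP-1 TGANTCA, the E-box CAGCTG, TEAD CATTCC, the nuclear receptor core AGGTCA, the hypoxia element ACGTG and the MEF2 consensus. The hypoxia element reads ACGTG on both strands of CACGTG and was then counted on each. A match is a description of the letters and does not show that a factor was bound.
Igf1r, increased, chr7:68153214-68153513: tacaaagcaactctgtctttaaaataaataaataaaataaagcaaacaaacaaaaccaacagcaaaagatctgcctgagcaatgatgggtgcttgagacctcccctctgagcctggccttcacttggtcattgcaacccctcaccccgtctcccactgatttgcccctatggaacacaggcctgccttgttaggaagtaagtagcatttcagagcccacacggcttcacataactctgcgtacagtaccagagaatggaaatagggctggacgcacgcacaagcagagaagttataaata
Igf2, increased, chr7:142600549-142600748: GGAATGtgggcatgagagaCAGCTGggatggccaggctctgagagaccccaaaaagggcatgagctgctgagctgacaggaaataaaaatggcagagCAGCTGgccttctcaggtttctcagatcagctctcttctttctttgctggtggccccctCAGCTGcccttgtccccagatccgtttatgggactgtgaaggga
Foxo3, increased, chr10:42261844-42262043: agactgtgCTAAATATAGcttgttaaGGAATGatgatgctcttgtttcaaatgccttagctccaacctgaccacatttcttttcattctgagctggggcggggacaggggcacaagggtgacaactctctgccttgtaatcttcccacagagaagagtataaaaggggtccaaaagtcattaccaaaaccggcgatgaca
Pik3r1, increased, chr13:101573712-101574011: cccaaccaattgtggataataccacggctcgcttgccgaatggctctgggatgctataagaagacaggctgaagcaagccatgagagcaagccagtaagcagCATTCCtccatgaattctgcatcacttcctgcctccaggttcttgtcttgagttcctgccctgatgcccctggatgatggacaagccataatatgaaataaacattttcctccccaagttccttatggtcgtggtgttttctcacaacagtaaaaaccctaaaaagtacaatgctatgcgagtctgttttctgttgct
Pik3r1, decreased, chr13:101698646-101698945: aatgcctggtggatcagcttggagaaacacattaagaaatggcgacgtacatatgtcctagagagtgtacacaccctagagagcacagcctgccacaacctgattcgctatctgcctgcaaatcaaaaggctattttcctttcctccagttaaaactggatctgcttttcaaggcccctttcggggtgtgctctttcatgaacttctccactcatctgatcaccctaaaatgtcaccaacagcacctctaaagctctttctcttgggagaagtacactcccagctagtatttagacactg
Igfbp3, decreased, chr11:7217238-7217537: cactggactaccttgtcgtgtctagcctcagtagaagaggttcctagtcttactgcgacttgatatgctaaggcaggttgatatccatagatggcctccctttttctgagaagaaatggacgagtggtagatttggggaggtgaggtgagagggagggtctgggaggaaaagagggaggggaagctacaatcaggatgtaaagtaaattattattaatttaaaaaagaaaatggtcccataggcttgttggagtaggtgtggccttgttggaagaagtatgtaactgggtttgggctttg
Irs1, decreased, chr1:82291995-82292194: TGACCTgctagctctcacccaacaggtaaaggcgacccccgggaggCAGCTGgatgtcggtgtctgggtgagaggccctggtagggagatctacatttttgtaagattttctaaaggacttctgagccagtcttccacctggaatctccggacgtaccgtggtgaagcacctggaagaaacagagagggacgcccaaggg
Trim63, decreased, chr4:134307436-134307635: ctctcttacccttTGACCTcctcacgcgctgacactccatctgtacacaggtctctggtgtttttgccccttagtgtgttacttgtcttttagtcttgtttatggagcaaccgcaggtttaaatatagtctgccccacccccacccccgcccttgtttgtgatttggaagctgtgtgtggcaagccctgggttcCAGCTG
Hk1, decreased, chr10:62326968-62327167: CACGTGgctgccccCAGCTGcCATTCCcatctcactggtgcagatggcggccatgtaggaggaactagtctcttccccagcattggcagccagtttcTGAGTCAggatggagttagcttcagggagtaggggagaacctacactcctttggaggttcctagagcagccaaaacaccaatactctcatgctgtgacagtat

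The Igf2 window holds 3 E-boxes, the class of site that MyoD and myogenin bind, and a TEAD match at its first base. The Foxo3 window holds a MEF2 and a TEAD match, and the increased run of Pik3r1 a TEAD match. The Irs1 and Trim63 windows each hold a nuclear receptor core and an E-box. The Hk1 window holds CACGTG, here counted as the hypoxia element alone, followed by the E-box CAGCTG, a TEAD and an AP-1 match. No match lies in the 300 bases shown for Igf1r and Igfbp3 or in the decreased run of Pik3r1, which says only that these letters are not in those windows. Over all 11179 regions on the assembled chromosomes, the central 500 bp held an E-box in 34.7%, a nuclear receptor core in 29.7%, a TEAD match in 28.5%, AP-1 in 20.2%, the hypoxia element in 20.0%, the FOXO core in 7.48% and MEF2 in 1.84%. These shares are for a fixed central window. They are no background for the runs of 200 bases, which were picked for the most matches.

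More members lay nearest to a decreased than to an increased region. A decreased region was found for 21 members (50%), where the background was 17.8% of all protein-coding genes, and an increased region for 10 members (23.8%), where it was 10.6%. Igf1, Igf2, Igf1r, Akt2, Foxo3 and Igfbp7 had increased regions alone. Insr, Igfbp3, Pik3r1 and Tbc1d1 had both directions, as did 673 of 21938 protein-coding genes, and 17 members had decreased regions alone. The remaining 15 of the 42 members were nearest to no differential region, as were 16376 of 21938 protein-coding genes. A gene with a long body or few coding neighbours collects more nearest regions than a short gene in a dense locus, and the part of gene length and spacing in these shares was not tested.

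Within 100 kb of a start, 29 members (69.0%) had a decreased region, where the background was 42.7%, and 8 members (19.0%) had an increased region, where it was 24.1%. The share with an increased region was thus above the background by the nearest start and below it by distance, whereas the share with a decreased region was above it by both. Regions of both directions lay within 100 kb of Insr and Tbc1d1, and of 1943 of all 21938 protein-coding genes. No region met either condition for 7 of the 42 members, namely Foxo4, Tbc1d4, Pfkm, Ldha, Ldhb, Gys1 and Ppp1r3c. Among all 21938 protein-coding genes, none did for 8914.

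**Figure D1:**
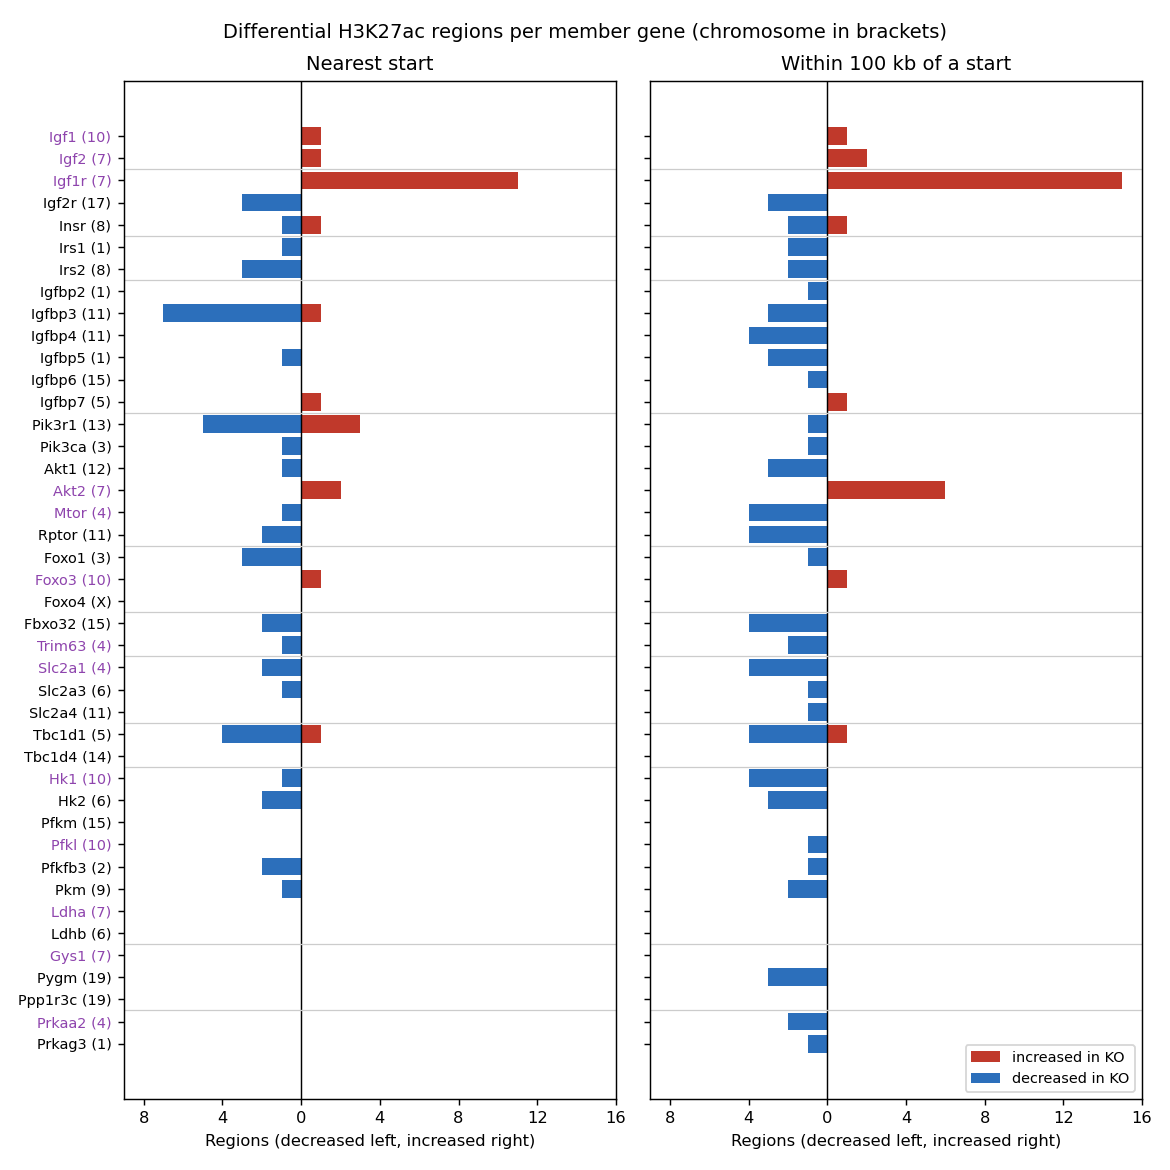
Differential H3K27ac regions per member gene, by nearest start (left) and within 100 kb of a start (right), with decreased regions drawn to the left of 0 and increased regions to the right. Purple names are members on chromosomes 4, 7, 10 and 16, and grey lines separate the roles. Igf1r stands out with 11 nearest and 15 neighbouring increased regions, whereas most other members have between 0 and 4 regions, nearly all decreased.

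The direction of a member followed its chromosome in part. Of all regions, 35.0% were increased, but the share was 97.7% on chromosome 7, 69.1% on chromosome 10, 7.53% on chromosome 4 and 7.80% on chromosome 16. Of the 6 members with increased regions alone, 5 were on chromosomes 7 and 10. On chromosomes 4, 7, 10 and 16 together, 16 of the 21 nearest regions were increased (76.2%, 95% Wilson interval 54.9 to 89.4), against 46.2% of all regions there. This background pools chromosomes of opposite direction, whereas Igf1r on chromosome 7 supplied 11 of the 21 regions. With Igf1r left out, 5 of 10 nearest regions on these chromosomes were increased. The part of the chromosome mix in the difference from 46.2% was not tested. On the other chromosomes 7 of 47 were increased (14.9%, interval 7.41 to 27.7), against 30.2% of all regions there. These intervals cover counting error over regions, which are not independent of their neighbours.

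Over all chromosomes the 2 shares offset each other, and 23 of 68 nearest regions were increased (33.8%, interval 23.7 to 45.7). Igf1r alone supplied 11 of the 23. Without Igf1r, 12 of 57 were increased (21.1%, interval 12.5 to 33.3). Of the 95 regions within 100 kb of a member, 28 were increased (29.5%), and outside the 4 chromosomes 3 of 53 were (5.66%). Among the 29 members outside these chromosomes, 17 were nearest to a decreased region (58.6%, against 18.3% of all genes there) and 5 to an increased region (17.2%, against 9.63%). Whether a member on chromosome 4, 7 or 10 carried a local difference or shared in that of its chromosome cannot be told apart here.

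The roles held between 2 and 8 members each, and a count of 0 in so few genes lies close to the 10.6% of all protein-coding genes that had a nearest increased region. Both ligand genes lay near increased regions and neither had a decreased region within 100 kb. Igf1 (ENSMUSG00000020053.18, chromosome 10, 87858265 to 87937042), which encodes the main growth factor of muscle, had an increased region of 501 bp at 87847134 to 87847634. It was centred 10881 bp upstream of the gene, in an intron of the antisense transcript Igf1os, and the closest decreased region was 449081 bp away. Igf2 (ENSMUSG00000048583.16, chromosome 7, 142650766 to 142666816, minus strand), the fetal growth factor of an imprinted cluster, had the widest increased region of any member. This region measured 4385 bp (142598475 to 142602859), lay downstream of Igf2 in an intron of Gm33148 and was 52363 bp from the nearest Igf2 start. It held 9 E-boxes, or 2.05 per kb against 0.811 per kb over all regions, and 23 regions of the 11179 held as many or more. Another increased region, of 773 bp in an intron of Ins2, was centred 44989 bp upstream of an Igf2 start.

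The receptors differed in direction. Igf1r (ENSMUSG00000005533.10, chromosome 7, 67952827 to 68233668), the receptor through which both IGFs signal, was nearest to 11 increased and no decreased regions. They extended over 249 kb and covered 17737 bp, with widths from 501 to 3407 bp. Of these, 9 were intronic, and 2 were upstream of the gene, centred 42096 and 35611 bp from its 5′ end. The widest was that whose centre is printed above. It lay at 68151661 to 68155067, 200537 bp downstream of the 5′ end and 4774 bp from the start of an internal transcript. The closest region to the 5′ end of the gene was at 67967620 to 67969053, 15510 bp inside it. Another 4 increased regions lay within 100 kb beyond the gene, nearest to Pgpep1l and Fam169b. Of all protein-coding genes, 14 had at least 11 nearest increased regions, and 11 of these were on chromosome 7.

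Igf2r (chromosome 17, 12682406 to 12769664, minus strand) encodes the receptor that clears IGF2 by taking it to lysosomes. It had 3 decreased intronic regions and no increased region closer than 364974 bp. They measured 1413, 4037 and 1540 bp, and the second (12722492 to 12726528) was the widest decreased region nearest to a member. The last (12763337 to 12764876) was centred 5557 bp inside the 5′ end, where the gene overlaps its antisense transcript Airn. Insr, the insulin receptor gene (chromosome 8, 3122061 to 3279617, minus strand), had an increased region of 729 bp (3246391 to 3247119) and a decreased region of 639 bp (3239502 to 3240140) in introns, together spanning 7.62 kb. Changes of opposite direction thus lay next to each other in this gene, 32796 and 39730 bp from a start. A further decreased region of 1155 bp lay 88627 bp upstream.

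Both adaptor genes lay near decreased regions alone. Irs1 (chromosome 1, 82233101 to 82291416, minus strand) had a decreased region of 1463 bp at 82291754 to 82293216, centred 1069 bp upstream of its 5′ end. This was the sole region within 2.5 kb of the 5′ end of any member. Its GC content was 54.0%. A second decreased region of 632 bp lay within the gene, 51009 bp from the start, with Gm9747 as the nearest gene. Irs2 (chromosome 8, 10984681 to 11008458, minus strand) had decreased intronic regions of 2355 bp (10994139 to 10996493) and 1520 bp (10987561 to 10989080), centred 13142 and 20137 bp from its start. Another, of 631 bp (10677131 to 10677761), lay 331012 bp downstream, at 533 bp from the start of the non-coding gene 5330413D20Rik.

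The IGF-binding proteins hold IGFs in the extracellular fluid. Of their 6 genes, 5 had a decreased region within 100 kb (83.3%, against 42.7% of all protein-coding genes). By nearest start, 2 of the 6 had a decreased region (33.3%, against 17.8%) and 2 an increased region (33.3%, against 10.6%). Igfbp3 (chromosome 11, 7206086 to 7213923, minus strand) was nearest to 7 decreased regions and 1 increased region, all upstream and together spanning 579 kb. The closest, a decreased region of 2659 bp (7216059 to 7218717), was centred 3465 bp upstream of the gene. The other 6 decreased regions were 189140 to 580556 bp away, and the increased region was 566994 bp away, between decreased regions. No start of another protein-coding gene lay closer to any of them. Of all protein-coding genes, 108 had at least 7 nearest decreased regions. Within 100 kb, Igfbp3 had 3 decreased regions, 2 of which lay in introns of Adcy1.

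A decreased region of 501 bp (chromosome 1, 72895291 to 72895791) lay beyond the 5′ end of Igfbp5, 20657 bp upstream of it and 46842 bp downstream of a start of the neighbouring gene Igfbp2. It was the only region that lay within 100 kb of a pair of members. Igfbp5, the binding protein that differentiating myoblasts make in large amounts, had 2 more decreased regions, 80301 and 99240 bp upstream. For Igfbp4, 4 decreased regions lay between 59694 and 89890 bp from a start, nearest to Rara, Tns4 and Ccr7. For Igfbp6, 1 decreased region lay in an intron of Itgb7, 80432 bp away. Igfbp7 was the exception, with 1 increased intronic region of 501 bp (chromosome 5, 77380683 to 77381183) and no decreased region closer than 268485 bp.

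**Figure D2:**
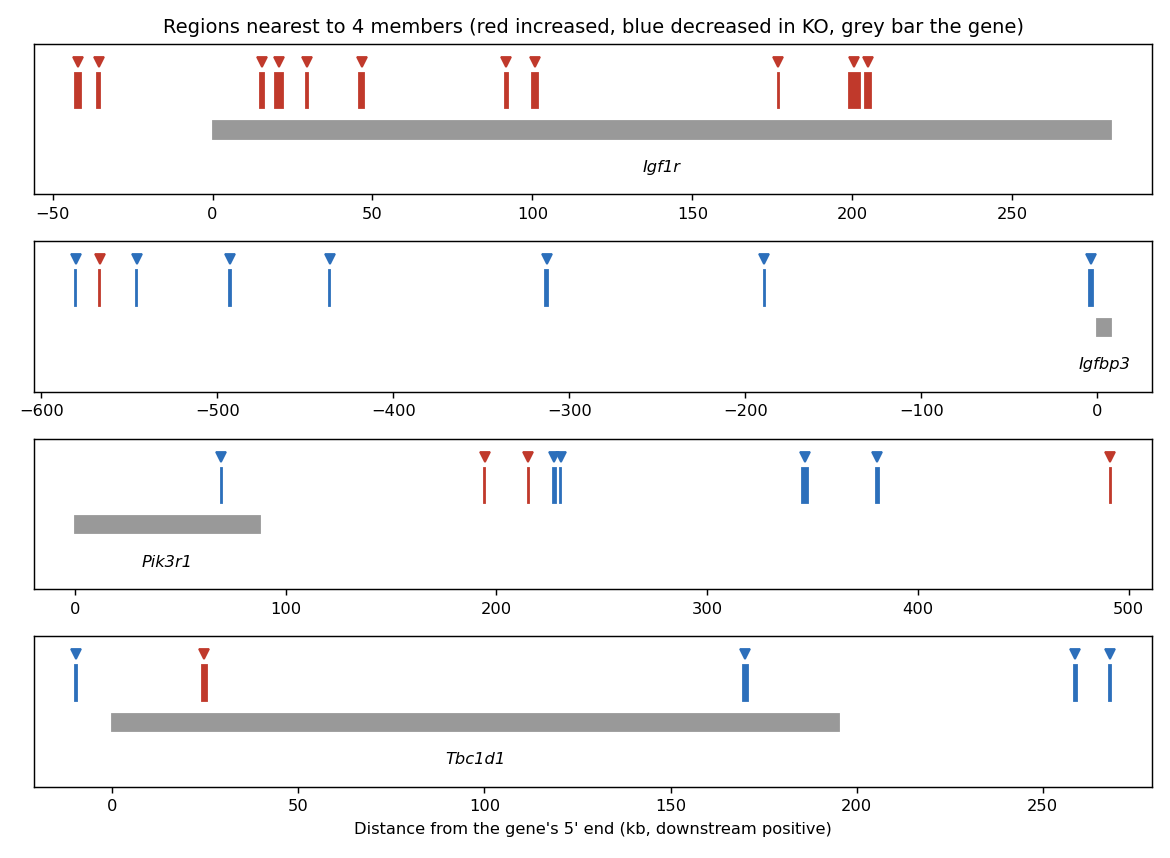
Regions nearest to Igf1r, Igfbp3, Pik3r1 and Tbc1d1, drawn by distance from the 5′ end of each gene in kb, with downstream positive and the gene as a grey bar. Bars with a triangle are regions, red for increased and blue for decreased, and narrow regions are drawn at a minimum width. All 11 regions of Igf1r are increased and 9 lie inside the gene, whereas 7 of 8 regions of Igfbp3 are far upstream and the 7 regions beyond Pik3r1 form a block of 4 decreased regions with increased regions on either side.

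All 6 genes of the kinase cascade were nearest to a differential region, as were 25.4% of all protein-coding genes. Of the 6, 5 were nearest to a decreased region (83.3%, against 17.8%) and 2 to an increased region (33.3%, against 10.6%). For Akt1, Mtor and Pik3ca the nearest start belonged to a transcript annotated as a retained intron. Measured from the 5′ end alone, these 3 genes were nearest to no decreased region, and Pik3r1 and Rptor remained. Pik3r1, which encodes the regulatory p85 subunit of phosphoinositide 3-kinase (chromosome 13, 101680563 to 101768217, minus strand), had 5 decreased and 3 increased regions. A decreased intronic region of 628 bp (101698482 to 101699109) was centred 3308 bp from an internal start and was the only region within 100 kb. The other 7 lay downstream of the gene, 118481 to 415490 bp from its nearest start. Going downstream, the first 2 were increased, the next 4 decreased and the last increased. The closest increased region was 101573612 to 101574112. Pik3ca, which encodes the catalytic subunit, had 1 decreased region of 1643 bp within the gene (chromosome 3, 32453563 to 32455205), centred 203 bp from the start of Gm37123 and 56713 bp from the 5′ end of Pik3ca.

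The Akt paralogs lay near regions of opposite direction. Akt1 (chromosome 12, 112653821 to 112674884, minus strand) had a decreased region of 501 bp (112652437 to 112652937) just beyond its 3′ end, 4286 bp from an internal start. Within 100 kb it had 2 more decreased regions, of 5243 bp in an intron of Adssl1 and of 2032 bp in an intron of Inf2. Akt2 (chromosome 7, 27591552 to 27640826), the isoform tied to insulin-stimulated glucose uptake, had 2 increased intronic regions, of 800 bp (27599350 to 27600149) and 898 bp (27623404 to 27624301). Another 4 increased regions lay within 100 kb, nearest to 2310022A10Rik, Map3k10, Zfp607b and Zfp60. Akt1 was on a chromosome where 28.3% of regions were increased and Akt2 on chromosome 7, where 97.7% were.

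Mtor and Rptor, the 2 members that encode parts of mTOR complex 1, were near decreased regions alone. Of all regions, 7.53% were increased on chromosome 4, which holds Mtor, and 16.2% on chromosome 11, which holds Rptor. Mtor (chromosome 4, 148448611 to 148557683) had 1 region to which it was the nearest gene, a decreased intronic region of 501 bp (148529620 to 148530120), 14543 bp from an internal start. Within 100 kb it had 3 more, including a region of 5840 bp in an intron of Mtor at which Angptl7 was the protein-coding gene with the nearest start. It was the widest region of either direction within 100 kb of a member. Rptor, which encodes the scaffold raptor (chromosome 11, 119602905 to 119899576), had decreased intronic regions of 647 bp (119818913 to 119819559), 3711 bp from an internal start, and of 1318 bp (119687327 to 119688644). Another 2 decreased regions lay beyond its 3′ end, nearest to Baiap2.

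Among the FoxO factors, Foxo1 and Foxo3 lay near regions of opposite direction and Foxo4 near none. Foxo1 (chromosome 3, 52268336 to 52353221) had a decreased intronic region of 2210 bp (52327184 to 52329393), 59953 bp from its start. Its other 2 decreased regions were 129409 and 235003 bp downstream. Foxo3 (chromosome 10, 42181841 to 42276755, minus strand) had an increased intronic region of 3636 bp at 42260126 to 42263761, joined by HOMER from 2 peaks. It was centred 14811 bp inside the 5′ end and 3578 bp upstream of an internal coding start, and it held the MEF2 match shown above. The closest regions to Foxo4 on the X chromosome were 449532 bp (decreased) and 1136282 bp (increased) away.

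Both atrophy ligase genes, which are textbook FoxO targets, lay near decreased regions alone. Fbxo32, which encodes atrogin-1 (chromosome 15, 58175879 to 58214932, minus strand), had decreased intronic regions of 1853 bp (58197919 to 58199771) and 501 bp (58191486 to 58191986), centred 16087 and 23196 bp from its start. Upstream, decreased regions of 804 and 2065 bp, nearest to Klhl38, lay 82149 and 93882 bp away. Trim63, which encodes MuRF1 (chromosome 4, 134315120 to 134329629), had a decreased region of 2420 bp at 134305875 to 134308294, centred 8035 bp upstream of its start. This region held 4 E-boxes. A second decreased region, of 667 bp at the start of Pafah2, was 76692 bp downstream. On chromosome 4 only 7.53% of regions were increased, against 26.4% on chromosome 15.

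None of the 3 glucose transporter genes lay near an increased region. Of all protein-coding genes, 10.6% were nearest to one and 24.1% had one within 100 kb. Slc2a1, which encodes the basal transporter GLUT1 (chromosome 4, 119108711 to 119137983), had decreased regions of 755 bp (119118659 to 119119413, intronic) and 1607 bp (119130969 to 119132575) within the gene, 10122 and 22858 bp from a start. The second was promoter-proximal to Gm12867, at 771 bp from its start. Slc2a3, which encodes GLUT3 (chromosome 6, 122727809 to 122801640, minus strand), had a decreased intronic region of 655 bp (122795027 to 122795681), 6286 bp from its start. Slc2a4, which encodes the insulin-responsive GLUT4, was nearest to no region. The only region within 100 kb of it was decreased, at the start of Dlg4 and 71285 bp upstream.

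Tbc1d1 and Tbc1d4 encode the Akt and AMPK substrates that restrain GLUT4 traffic. Tbc1d1 (chromosome 5, 64156305 to 64351486) had 4 decreased regions and 1 increased region. The closest to a start was a decreased region of 626 bp (64146337 to 64146962), 9655 bp upstream of the gene. The increased region of 1419 bp (64180332 to 64181750) was intronic, 24736 bp inside the 5′ end, and a decreased intronic region of 1342 bp (64325779 to 64327120) lay further in. Another 2 decreased regions were beyond the 3′ end. Tbc1d4 had no region within 100 kb, the closest being an increased region 185919 bp away.

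**Figure D3:**
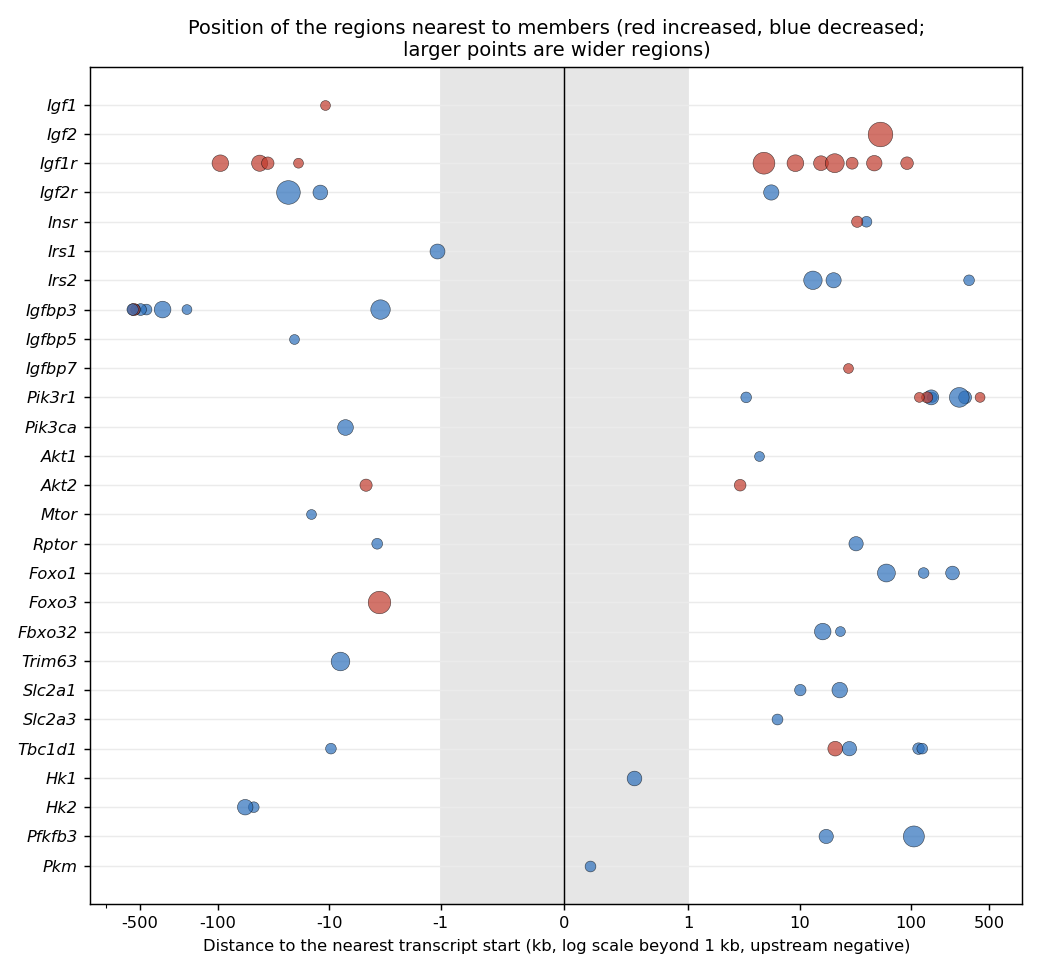
Distance of each region nearest to a member from the closest annotated transcript start of that member, coding or not, in kb with upstream negative, on a scale that is linear within 1 kb (grey) and logarithmic beyond. Points are regions, red for increased and blue for decreased, and larger points are wider regions. Only the decreased regions of Hk1 and Pkm lie within 1 kb, and the widest points belong to Igf2 and Igf2r.

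Of the 8 glycolytic genes, 4 were nearest to a decreased region and none to an increased region, beside 17.8% and 10.6% of all protein-coding genes. Hk1 (chromosome 10, 62268855 to 62379908, minus strand), a hexokinase that commits glucose to metabolism, had a decreased region of 1407 bp at 62326499 to 62327905. It was centred 565 bp downstream of an internal coding start and 52706 bp inside the 5′ end. The direction differed from most of its chromosome, where 69.1% of regions were increased. Another 3 decreased regions at Tspan15 lay within 100 kb of Hk1. Pkm, which encodes pyruvate kinase M (chromosome 9, 59656368 to 59679375), had a decreased region of 646 bp at 59664686 to 59665331, centred 207 bp downstream of an internal coding start and 8641 bp inside the 5′ end. These were the only regions within 1 kb of a start of the member itself.

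Hk2, the hexokinase that insulin induces in muscle (chromosome 6, 82725025 to 82774454, minus strand), had decreased regions of 629 bp (82821696 to 82822324) and 1604 bp (82830431 to 82832034), 47556 and 56779 bp upstream. The second lay 201 bp from the start of the non-coding gene Gm32591. Pfkfb3, which makes the activator of phosphofructokinase (chromosome 2, 11471433 to 11554077, minus strand), had decreased regions of 1319 bp (11464169 to 11465487) and 3134 bp (11374774 to 11377907) downstream, 17283 and 105770 bp from a start. The wider held 5 TEAD matches, the most of any region nearest to a member. Pfkl, the liver-type phosphofructokinase, had a decreased region near Icosl, 93453 bp away. For Pfkm, Ldha and Ldhb the closest regions were 136885 (decreased), 114020 (increased) and 156385 bp (decreased) away, all outside the window.

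The 3 glycogen and 2 AMPK genes were nearest to no differential region, where 25.4% of all protein-coding genes were nearest to one. Pygm, the muscle glycogen phosphorylase gene, had 3 decreased regions within 100 kb, at the starts of Men1 and Cdc42bpg and in an intron of Nrxn2, of which the closest was 49139 bp away. Gys1, the glycogen synthase gene, and Ppp1r3c, a targeting subunit of its phosphatase, had none, the closest regions being 165169 and 154727 bp away and increased. Prkaa2, which encodes the catalytic subunit of AMPK enriched in muscle, had 2 decreased regions 44022 and 70638 bp upstream, at Plpp3. Prkag3, which encodes the regulatory subunit of glycolytic fibres, had a decreased region 41112 bp upstream, nearest to Wnt10a. The 47 regions that were within 100 kb of a member but nearest to another gene numbered 9 increased and 38 decreased. Distance alone does not say which gene such a region acts on.

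Regions nearest to members were mostly distant from starts. Of the 68, 37 were intronic (54.4%, against 49.8% of all regions), 25 were intergenic (36.8%, against 34.1%) and 6 were promoter-proximal (8.82%, against 12.6%), meaning within 1 kb of a start of any annotated gene. No increased region of the 23 was promoter-proximal, where the share was 15.2% over all increased regions, and 18 were intronic (78.3%, against 46.2%). All 6 promoter-proximal regions were decreased, and 4 of them were at starts of other genes (Gm37123, Gm12867, Gm32591 and 5330413D20Rik). Regions over 100 kb from the member numbered 20 (29.4%, against 17.6%), most of them at Igfbp3 and Pik3r1. The nearest start was not the 5′ end of the gene for 36 regions, so many distances above are to other annotated transcripts. At Igfbp7, Insr and Slc2a1 that start lay close to the 5′ end, and at others it was internal.

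Increased regions nearest to members had a median width of 955 bp (777 bp over all increased regions) and decreased regions of 1033 bp (863.5 bp over all decreased regions). Mean GC content was 44.6% ± 2.78 (SD, n = 23) for increased and 47.3% ± 4.41 (SD, n = 45) for decreased regions, against 43.5% ± 5.56 and 48.0% ± 5.28 over all regions of each direction. HOMER had joined 10 of the 68 from several peaks (14.7%, against 8.44%).

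Motif matches in the central 500 bp were counted for the same regions. AP-1 matched in 16 of 45 decreased regions (35.6%, against 17.9% of all decreased regions) and in 4 of 23 increased regions (17.4%, against 24.3%). TEAD matched in 10 increased regions (43.5%, against 30.7%) and 15 decreased regions (33.3%, against 27.3%). The E-box was found in 4 increased (17.4%, against 28.8%) and 14 decreased regions (31.1%, against 37.9%), and MEF2 in 2 increased and 0 decreased regions. The FOXO core matched in 6 of 68 regions (8.82%, against 7.48%), the nuclear receptor core in 17 (25%, against 29.7%) and the hypoxia element in 16 (23.5%, against 20.0%). Over whole regions AP-1 matched in 44.4% of decreased regions near members and 33.3% of all decreased regions, but regions near members were wider. Per kb there were 0.422 AP-1 matches in the 68 regions and 0.409 in all regions. These values per kb pool both directions, and none was computed for decreased regions alone. The central window had the same 500 bp in every region. The E-box share over whole regions was 51.5%, against 52.7%. Several regions share a gene and neighbouring sequence, and none of these differences was tested.

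**Figure D4:**
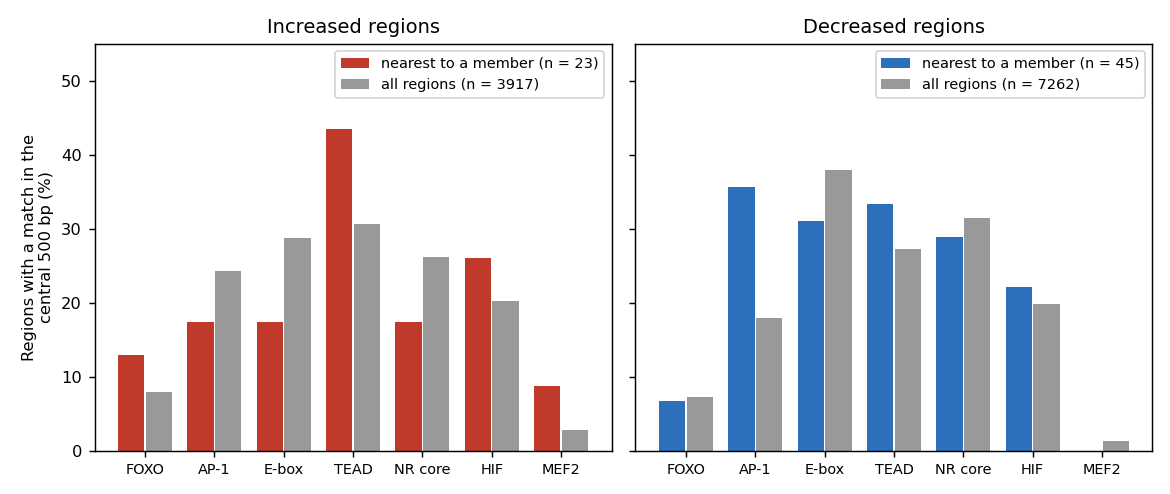
Share of regions in percent with at least 1 match to each motif in the central 500 bp, for increased (left, red) and decreased regions (right, blue) nearest to a member, beside all regions of that direction (grey). NR core is AGGTCA and HIF is the hypoxia element ACGTG. The AP-1 bar of decreased regions near members stands at 35.6% beside 17.9%, and the TEAD bar of increased regions at 43.5% beside 30.7%.

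Further genes of each pathway also lay near decreased more often than increased regions, as did all protein-coding genes. Of 32 other insulin and IGF pathway genes, 16 were nearest to a decreased region (50%, against 17.8% of all protein-coding genes) and 7 to an increased region (21.9%, against 10.6%). Gsk3b and Igf2bp2 on chromosome 16 had 5 decreased regions each and Deptor, an mTOR inhibitor, had 3. Those of Igf2bp1 and Pik3cd were centred 51 and 27 bp from a start. Rheb, the activator of mTOR complex 1, had 1 increased region and no decreased region and lies outside chromosomes 4, 7, 10 and 16. On chromosome 7, Inppl1 had 2 increased regions and Gsk3a had 1.

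Of 18 other atrophy genes, 6 were nearest to a decreased region (33.3%, against 17.8%) and 3 to an increased region (16.7%, against 10.6%). Traf6, a ligase upstream of the atrophy response, had 2 decreased regions, the closer 335 bp from a start, and Klf15 had 1. The 3 with an increased region, Bnip3, Fbxo30 and Trim32, were on chromosomes 7, 10 and 4. Outside chromosomes 4, 7, 10 and 16, 0 of 10 such genes were nearest to an increased region, which lies close to the 9.63% of all genes there. Within 100 kb, 1 of these 10 had an increased region (10.0%, against 21.2%) and 9 a decreased region (90.0%, against 44.7%). Of 40 other glucose metabolism genes, 10 were nearest to a decreased region (25%, against 17.8%) and 5 to an increased region (12.5%, against 10.6%). Within 100 kb, 24 of the 40 had a decreased region (60.0%, against 42.7%) and 13 an increased region (32.5%, against 24.1%). In percentage points, the glucose metabolism list thus lay nearer to the background by nearest start than within 100 kb, where the background itself was higher. Prkag2, an AMPK subunit gene, had 6 decreased regions, Ppp1r3b and Pgm1 had 4 each, and Txnip, which restrains glucose uptake, had 1 at 156 bp from a start. Increased regions lay nearest to the glycogen genes Gyg and Ppp1r3a (2 each) and to Phkb, Prkaa1 and Pdha1 (1 each).

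**Figure D5:**
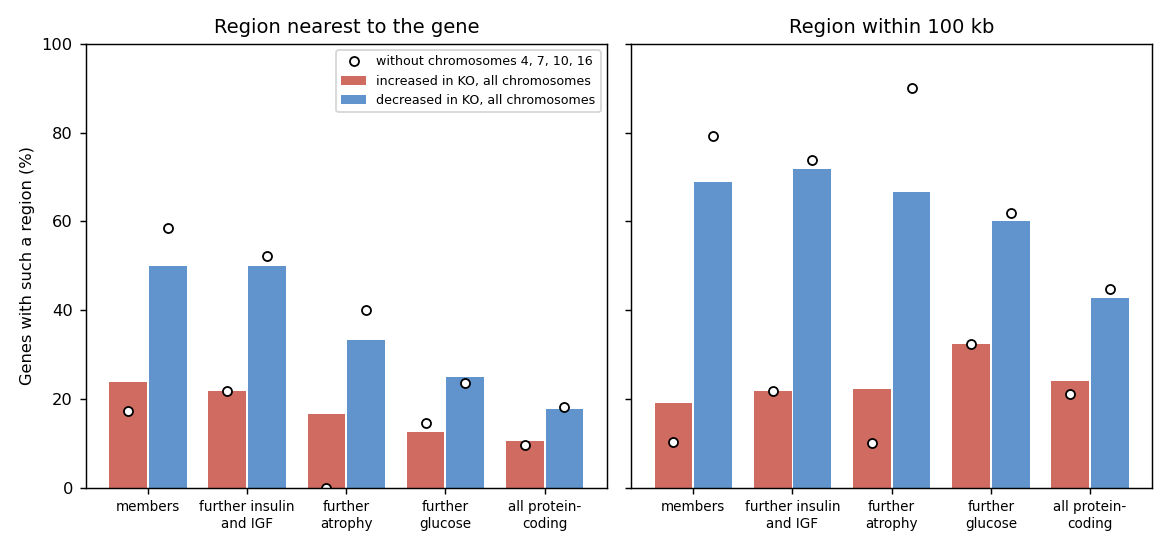
Share of genes in percent with an increased (red) or decreased (blue) region nearest to the gene (left) or within 100 kb of a start (right), for the members, the 3 further lists and all protein-coding genes. Open circles give the share without chromosomes 4, 7, 10 and 16. The decreased share of members is 50% by nearest start and 69.0% within 100 kb, beside 17.8% and 42.7% of all protein-coding genes.

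Markers of the cell types that such cultures can hold were located in the same lists. Of 8 myotube genes, 2 (Myh3 and Myh2) had a nearest increased region and 1 (Myh2) a decreased region. Of 6 myoblast genes, Myf5 had an increased region and Vcam1 and Pax7 had decreased regions, 8 of them at Pax7. Of 7 fibroblast genes, 4 (Col3a1, Col1a2, Dcn and Tcf21) had increased regions and Col1a1 a decreased region. Of 4 adipocyte genes, Pparg had regions of both directions and Adipoq had decreased regions. Within 100 kb, increased and decreased regions were found for 5 and 4 of the myotube genes, 3 and 4 of the myoblast genes, 3 and 1 of the fibroblast genes and 2 and 2 of the adipocyte genes. Over all protein-coding genes the shares were 10.6% and 17.8% by nearest start and 24.1% and 42.7% within 100 kb, against which lists of 4 to 8 genes give little to read. The lists hold changed regions alone, so a marker with none is not shown to lack the mark, the identity of the cells could not be checked by level, and the part of cell makeup in the results for the members was not tested.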

How the data were processed

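H3K27Ac and IgG CUT&RUN libraries of Ctrl and Nrip1KO myotubes (8 libraries, 4 groups of 2 by the labels) were the source of the data. The authors aligned paired reads to mm10 with BWA-MEM2 (2.2.1), called broad peaks with HOMER (4.11) and deposited regions that differed by 2-fold or more, as 1 list per direction. How replicates and IgG libraries entered these calls is not given in the sources used here. A difference in depth, in reaction efficiency or in DNA content between cultures would enter them. The labels and the methods name different suppliers of the H3K27ac antibody. The deposited score is 1 in every region and was not used, and the deposited positions (other columns) were read as half-open intervals and printed counted from 1.

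The members and the gene lists were chosen with earlier results of these data known. Regions were joined to GENCODE M21 on GRCm38.p6, the assembly behind mm10, by the distance from the region centre to any annotated transcript start of a protein-coding gene, coding or not, with 1 unplaced region excluded. Positions, GC content and motifs were taken from the same assembly with Python 3.11.15, pandas 2.3.3 and samtools 1.23.1, and plots were drawn with matplotlib 3.10.9. Shares carry 95% Wilson intervals (scipy 1.17.1), which cover counting error only. The scripts were tested on simulated data. All results are descriptions without a test. Every member is named, and coordinates are given for promoter-proximal regions nearest to members, for the closest of the regions that had the member as nearest gene and for the widest per direction. Sequences were set for up to 3 members per direction with the most nearest regions, and those of Akt2 and Tbc1d1 were left out for length. Other regions and genes were named after their values were seen. Alternatives were the 5′ end alone, all annotated genes, limits on distance and width, windows of 25, 50 and 250 kb, promoter distances of 0.1 and 2.5 kb, loci joined within 10 kb, whole-region motifs, and the data without chromosomes 4, 7, 10 and 16. The alternative without Igf1r was added after seeing the data. Some genes and their regions are not reported here by name.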

Additional observations from a re-analysis of the deposited data

How the results depend on the processing

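Of 49 values under alternative settings, 29 stayed within the limits set for an unchanged value and 20 moved. The count of members nearest to an increased region (10) was 4 when all annotated genes competed as nearest, 4 with regions of 1 kb or wider and 5 without chromosomes 4, 7, 10 and 16. That of members nearest to a decreased region (21) was 12 when all annotated genes competed, with no member gained. Measured from the 5′ end alone, the same 10 members had increased regions and 18 had decreased regions, Akt1, Mtor and Pik3ca being lost. Within 100 kb, the count with an increased region (8) was 5 with regions of 1 kb or wider, 3 without the 4 chromosomes, 5 in a window of 25 kb and 19 in a window of 250 kb, and the count with a decreased region (29) was 18 in a window of 25 kb. The share of increased regions (33.8%) was 48.1% when all annotated genes competed, which is above and not below the 35.0% of all regions, 14.9% without the 4 chromosomes and 21.1% without Igf1r, the last being chosen after seeing the data. The promoter-proximal share (8.82%) was 0% at a distance of 0.1 kb. The remaining values that moved were the width (706 bp) and GC content (43.3%) of increased regions without the 4 chromosomes and the whole-region shares of 5 motifs.

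No paired analysis was possible because the region lists hold no value per library, and leaving out a replicate was not possible for the same reason. Depth per library is unknown, and a member without a region is not shown to be unchanged.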
